A study of Mus musculus with 4 samples.

Results

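The genes described here encode the proteasome and its regulators. They were all gene features whose symbol begins with Psma, Psmb, Psmc, Psmd or Psme followed by a digit, which gave 45 of the 32285 genes in each of 4 single-cell RNA-seq libraries of mouse epidermis. The 45 comprised 8 Psma, 11 Psmb, 7 Psmc, 14 Psmd and 5 Psme symbols. Psmb8, Psmb9 and Psmb10 were set against 36 genes termed constitutive subunits here. These 36 exclude Psme1 and Psme2, the tissue-restricted forms Psma8 and Psmb11, Psme2b, which is a copy of Psme2, and Psmc3ip, a recombination factor that shares only the symbol.

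The study compared adult back skin epidermis with and without ΔNp63, the p63 isoform that maintains epidermal progenitor cells. Control mice were DNp63fl/fl and the ablated (experimental) mice were DNp63fl/fl;K14-CreT2, in which a tamoxifen-dependent Cre under the keratin 14 promoter acts in basal keratinocytes. Mice of both genotypes, 2 to 17 months old and of both sexes, received 200 mg/kg tamoxifen by mouth each day for 5 days, and cells were taken 1 day or 1 week after ablation. There was 1 library for each genotype and time, so the differences below lack a replicate check and carry no p-value. The 1-day libraries used a 3′ kit and the 1-week libraries a 5′ kit, so levels were compared only within a time point.

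The proteasome is the barrel-shaped protease that degrades ubiquitin-tagged proteins. Its core is made of alpha rings that gate the barrel and beta rings that hold the catalytic subunits Psmb5, Psmb6 and Psmb7. Interferon signalling induces Psmb8, Psmb9 and Psmb10, which take the places of those 3 in newly built cores and form the immunoproteasome, known for shaping the peptides shown on MHC class I. The regulatory cap contains the ATPases (Psmc) and non-ATPase subunits (Psmd) that unfold and bind substrates, and Psme1 with Psme2 forms an alternative, interferon-inducible activator.

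The inducible catalytic genes lie in 2 loci. In GENCODE M21 on mouse build GRCm38, Psmb8 spans chromosome 17 from 34197721 to 34201454 on the plus strand, and Psmb9 spans 34181987 to 34187764 on the minus strand. Between them lies Tap1 (34187553 to 34197225, plus strand), which encodes a subunit of the peptide transporter for MHC class I. The start of Tap1 overlaps that of Psmb9 on the opposite strand, and whether counting used strand was not given in the sources used here. Psmb10 lies on chromosome 8 from 105935735 to 105938444 on the minus strand.

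Promoter windows from RefSeq on GRCm38.p6 were searched because the members fall into interferon-inducible and constitutive genes. Each window runs from 250 bases before to 50 bases after the transcript start. Windows were found for 38 of the 45 members. The letters searched on both strands were GAAANNGAAA (interferon-stimulated response element, ISRE), TTCNNNGAA (gamma interferon activation site, GAS) and TGACNNNGC (antioxidant response element, the letters bound by Nfe2l1 and Nfe2l2). The ISRE letters were in 3.44% of 32851 promoters and in 4 of the 38 members (Psmb3, Psmd4, Psmd9 and Psme1). The GAS letters were in 8.30% of promoters and in Psmb8 and Psmd2. The antioxidant letters were in 12.4% of promoters and in 6 members (Psmb5, Psmb6, Psmc6, Psmd12, Psmd9 and Psme4). A match describes letters only and is not a measured site.
The 30-base stretches below hold the matches of 1 inducible catalytic subunit, 1 inducible activator subunit and 2 constitutive catalytic subunits, with the matched letters in capitals, 5′ to 3′ on the gene's strand.
Psmb8, GAS letters 97 bases before the start, chr17:34198088-34198117, plus strand: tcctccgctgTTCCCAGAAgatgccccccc
Psme1, ISRE letters read on the opposite strand, 10 bases after the start, chr14:55578493-55578522, plus strand: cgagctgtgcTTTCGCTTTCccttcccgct
Psmb5, antioxidant letters 47 bases before the start, chr14:54618023-54618052, minus strand: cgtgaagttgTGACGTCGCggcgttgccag
Psmb6, antioxidant letters 9 bases before the start, chr11:70525338-70525367, plus strand: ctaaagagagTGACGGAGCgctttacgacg
The starts are those of the RefSeq windows and can differ from the first base of the GENCODE gene. The stretches of Psmb8 and Psme1 lie inside the GENCODE span of their gene, downstream of its first base, and the stretches of Psmb8, Psme1 and Psmb6 overlap an annotated exon.
The ISRE and GAS letters were not found in the windows of Psmb9, Psmb10, Psme2 or Tap1.

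The matrices held 18413 to 33552 cell barcodes and 68191870 to 179736563 gene UMIs a library. A UMI (unique molecular identifier) stands for 1 captured RNA molecule. The lowest UMI total of a barcode was 500 in both controls but 1368 and 1059 in the ablated libraries, so the deposited barcodes were not selected alike. After filters 15626 to 23651 barcodes remained. After 1 week 61.5% (control) and 73.1% (ablated) of the barcodes that passed the UMI filters had a profile near that of free RNA, against 25.4% and 36.7% after 1 day. Libraries of a time point shared 299 (1 day) and 661 (1 week) barcodes. Clusters were named from marker genes, with the proteasome genes kept out of clustering. After 1 week, but not after 1 day, clusters with 50% or more of their barcodes near free RNA were kept out of every named class. The classes of the 2 times were thus not built alike. Keratinocyte clusters held 20282 control and 15216 ablated cells after 1 day. After 1 week they held 5878 of 19879 control and 2650 of 15626 ablated barcodes that remained after filters. Keratinocyte clusters whose 10 leading genes held more markers of another cell type than of keratinocytes and their compartments were kept out of these numbers. They held 245 control and 7206 ablated cells after 1 day, with 4359 of the ablated cells in a cluster led by Krt8 and Krt18 and 2282 in one led by Langerhans cell markers. After 1 week they held 1525 and 680, with 1162 of the control cells in a cluster with hemoglobin genes among its leading genes. Trp63, which encodes p63, was lower in the keratinocytes of each ablated library (405 to 130 CPM after 1 day, 448 to 190 CPM after 1 week). Its count does not separate ΔNp63 from other isoforms.

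Levels below are CPM, the UMIs of a gene over all UMIs of the cell class in that library. They are not divided by transcript length, and genes were not ranked against each other by level. A log2 ratio is ablated over control, and brackets give the 95% interval from counting error only. A gene was counted as past the threshold when it differed by more than 1.5-fold and had 50 or more UMIs over both libraries of the class. In keratinocytes 43 members had that many at each time point. Psma8 (a testis form) had 0 UMIs in keratinocytes, and Psmb11 (a thymus form) had 1 UMI, in the 1-day control.

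After 1 day the keratinocytes of the ablated library held less mRNA of the immunoproteasome subunits and about the same of the constitutive ones. Psmb8, which supplies the inducible chymotrypsin-like site, was at 117 CPM (115 to 119; 12453 UMIs) in the control and 77.9 CPM (75.8 to 80.0; 5297 UMIs) in the ablated library. Its log2 ratio was -0.59 (-0.64 to -0.54). Psmb9, the second inducible catalytic subunit, was at 51.8 CPM in the control against 36.5 CPM in the ablated library, a ratio of -0.50 (-0.57 to -0.44). Psmb10, the third, differed less, with 17.6 and 14.9 CPM and a ratio of -0.24 (-0.35 to -0.13). Summed, the 3 genes were at 187 and 129 CPM, a ratio of -0.53 (-0.57 to -0.49). Psmb8 was just past 1.5-fold, and its side of that limit depended on the cells compared. It was within 1.5-fold with all the left-out keratinocyte clusters counted (-0.51), over all cells (-0.49), with only the cluster led by Krt8 and Krt18 added (-0.48) and with class shares held at the control's (-0.34). The 36 constitutive subunits summed to 5090 CPM in the control against 5032 CPM in the ablated library, a ratio of -0.02 (-0.02 to -0.01).

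The constitutive catalytic partners differed less than Psmb8 and Psmb9, and not all in the same direction. Psmb5, the subunit that Psmb8 replaces, was at 207 and 192 CPM, a log2 ratio of -0.11. Psmb6, the partner of Psmb9, was at 239 and 209 CPM, a ratio of -0.19. Psmb7, the partner of Psmb10, was at 119 and 134 CPM, a ratio of 0.16. Among the activators, Psme2 was at 125 CPM in the control against 104 CPM in the ablated library (-0.27, -0.31 to -0.23), while its partner Psme1 was at 141 and 135 CPM (-0.07). Psme3, a nuclear activator, was at 58.6 and 50.6 CPM (-0.21). Psme4, an activator known from chromatin and spermatogenesis, was at 67.5 and 68.6 CPM (0.02).

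Across all roles, 2 of the 43 members passed 1.5-fold after 1 day: Psmb8 was lower and Psmc3ip was higher (2.63 to 4.21 CPM, 0.68). Of 13233 genes with enough UMIs, 6.77% were past 1.5-fold lower and 11.1% past it higher, so the members' counts were below the background in both directions. The median log2 ratio was 0.01 for the constitutive subunits and -0.00 for all genes. In the alpha ring the ratios ran from -0.03 (Psma2) to 0.21 (Psma1). In the constitutive beta ring they ran from -0.19 (Psmb6, with Psmb2 also at -0.19) to 0.16 (Psmb7). The ATPases lay between -0.17 (Psmc2) and 0.08 (Psmc1). The non-ATPase subunits lay between -0.24 (Psmd8) and 0.18 (Psmd1), and Psmd5, an assembly chaperone of the base, was at 0.33. Each of the other members thus lay nearer to 0 than Psmb8 and Psmb9, except Psmc3ip.

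**Figure D1:**
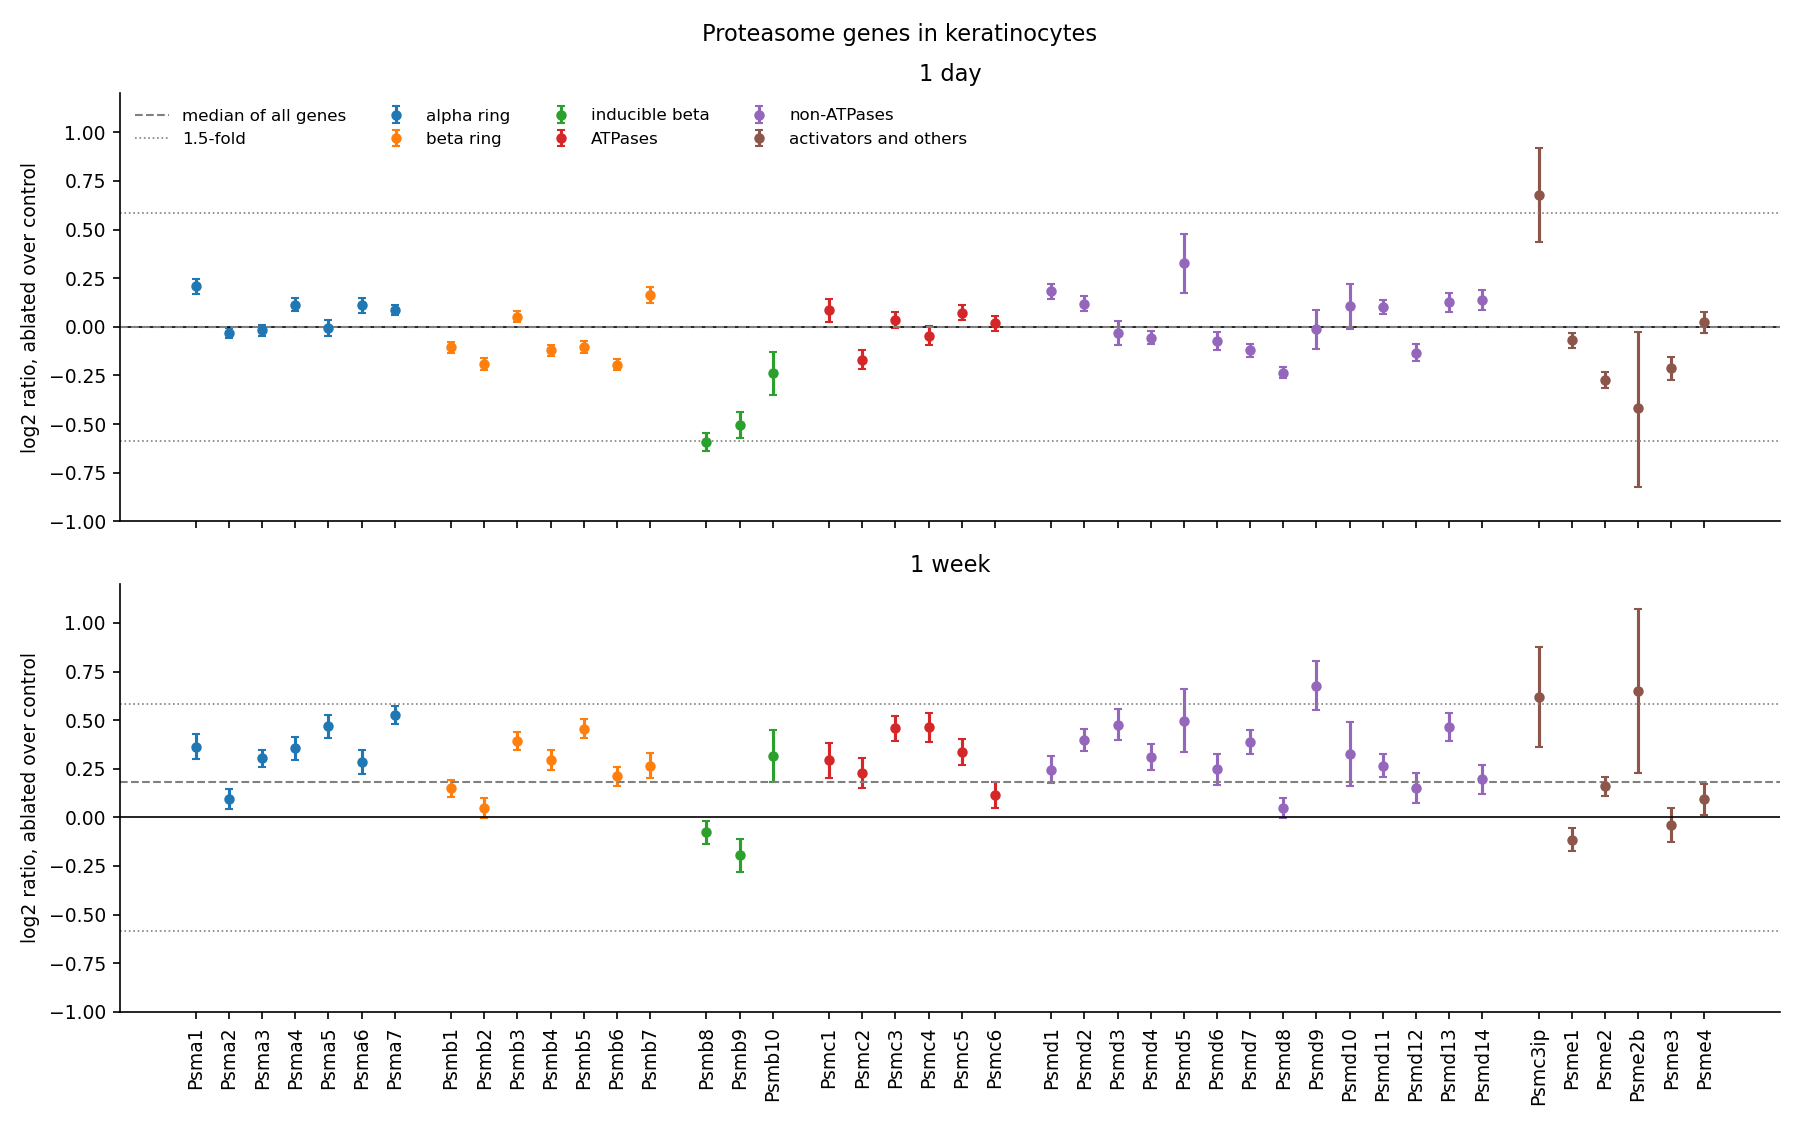
Log2 ratio (ablated over control) of CPM for the 43 proteasome genes with 50 or more UMIs in keratinocytes, after 1 day (top) and 1 week (bottom), coloured by role, with 95% counting intervals. The dashed line is the median of all genes and the dotted lines mark 1.5-fold. After 1 day Psmb8 (-0.59) and Psmb9 (-0.50) lie below the other core subunits, and after 1 week most members lie above 0 while Psmb8 (-0.08), Psmb9 (-0.20), Psme1 and Psme3 do not.

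The 1-day matrices also held hashtag antibody counts. The labels do not say what the hashtags mark, so the 3 groups of barcodes they define in each library were used as subsets of 1 library and not as replicates. A hashtag could be given to 60.6% of control and 38.4% of ablated keratinocytes. Psmb8 was at 115, 127 and 135 CPM in the 3 control subsets and at 83.1, 89.9 and 97.6 CPM in the 3 ablated subsets. Psmb9 was at 46.8, 57.1 and 69.7 CPM in the control and at 36.3, 41.5 and 44.0 CPM in the ablated subsets. Psme2 was at 117, 129 and 148 CPM in the control and at 96.5, 108 and 111 CPM in the ablated subsets. For these 3 genes every ablated subset lay below every control subset. All 3 ablated Psmb8 values lay above the level of the whole ablated keratinocyte class, so the cells given a hashtag do not stand for the whole class. The subsets overlapped for Psmb10 (16.6 to 21.2 CPM against 11.4 to 18.8 CPM), for Psme1 and for the constitutive sum (4952 to 5698 CPM against 4871 to 5259 CPM). In all, 12 of 43 members were lower in every ablated subset (Psmb2, Psmb6, Psmb8, Psmb9, Psmc2, Psmd4, Psmd7, Psmd8, Psmd12, Psme2, Psme2b and Psme3) and 3 were higher in every one (Psma1, Psmd1 and Psmd2). Over all genes, 16.6% were lower and 18% higher in every ablated subset.

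Within compartments the subsets did not all separate. Psmb8 was at 210 to 238 CPM in the control against 149 to 198 CPM in the ablated subsets of cycling-like cells. In hair follicle-like cells it was at 103.5 to 126 against 93.6 to 102.9 CPM. Neither class had an overlap, but the hair follicle-like ranges nearly met. The share of all genes without overlap was counted over all keratinocytes only, so subsets within compartments have no background beside them. In hair follicle-like cells every subset lay above the whole-class level of its library. The subsets overlapped in basal-like cells (156 to 227 against 134 to 209 CPM), in sebaceous-like cells (126 to 167 against 104 to 169 CPM) and in suprabasal-like cells (58.3 to 71.4 against 54.4 to 78.9 CPM). The smallest ablated subsets held 33 basal-like and 28 sebaceous-like cells.

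**Figure D2:**
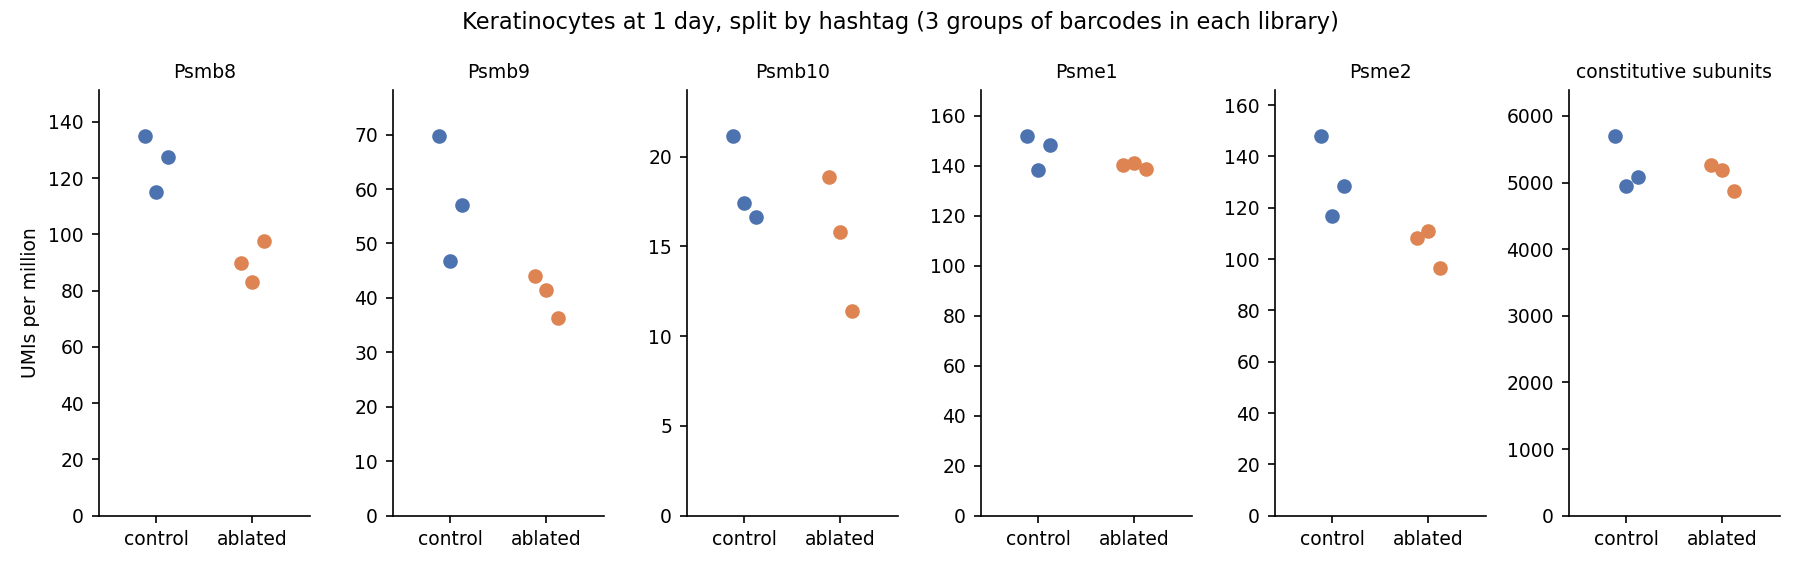
Level (CPM) in keratinocytes after 1 day of Psmb8, Psmb9, Psmb10, Psme1, Psme2 and the summed constitutive subunits; each point is 1 of 3 hashtag subsets of barcodes of the control or the ablated library. Control and ablated points do not overlap for Psmb8, Psmb9 and Psme2 and overlap for the other 3 panels.

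The mix of keratinocyte classes differed between the 1-day libraries. There were 4871 control and 610 ablated basal-like cells, and 4854 and 5796 suprabasal-like cells. Weighting each class by its share in the control gave a ratio of -0.37 for the inducible sum and -0.04 for the constitutive sum. The weighting counted suprabasal-like and granular-like cells, whose ablated cells came in part from clusters with few control cells. It thus does not compare like cells throughout. Within 14 clusters of the keratinocyte class after 1 day, Psmb8 was lower in the ablated cells of 10 and Psmb9 of 13. The interval lay below 0 in 8 clusters for Psmb8 and in 9 for Psmb9, and above 0 in 0 clusters for each gene. The constitutive Psmb6 was also lower in 13, with the interval below 0 in 9, while Psmb7 was lower in 3. The constitutive sum was lower in 10, with the interval below 0 in 6 and above 0 in 2. Median ratios over the clusters were -0.33 for Psmb8, -0.43 for Psmb9, -0.25 for Psmb6, 0.03 for Psmb7 and -0.03 for the constitutive sum. Immune markers were low in the keratinocyte clusters. The 8 general immune markers, all detected, summed to 10.5 CPM in the control against 18.1 CPM in the ablated keratinocytes. The 11 T cell markers summed to 73.1 and 43.7 CPM, the 8 Langerhans cell markers to 155 and 190 CPM and the 7 macrophage markers to 2.00 and 1.91 CPM. Their part in the difference of Psmb8 was not tested.

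Psmb8 levels varied widely between compartments of the control epidermis. In the 1-day control, Psmb8 was at 222 CPM in cycling-like cells, which carry mitotic genes such as Mki67, and at 184 CPM in basal-like cells. It was at 130 CPM in sebaceous-like, 83.7 CPM in hair follicle-like, 64.4 CPM in suprabasal-like and 43.4 CPM (34.0 to 54.6) in granular-like cells. The counting intervals of neighbours in that order did not overlap, but they cover counting error only. Among the hashtag subsets of the control, the ranges of neighbours overlapped from cycling-like to hair follicle-like cells. They were 210 to 238 CPM (cycling-like), 156 to 227 CPM (basal-like), 126.2 to 167 CPM (sebaceous-like) and 103 to 126.3 CPM (hair follicle-like). Suprabasal-like subsets lay below these, at 58.3 to 71.4 CPM. The compartments were named from keratin and other marker genes, and the proteasome genes had no part in the naming.

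In the ablated library after 1 day, Psmb8 was lower in each of these compartments. Cycling-like cells had 222 and 154 CPM (-0.53, -0.66 to -0.41) and basal-like cells 184 and 144 CPM (-0.35, -0.53 to -0.18). In hair follicle-like cells the levels were 83.7 and 68.3 CPM (-0.29), and in sebaceous-like cells 130 and 99.8 CPM (-0.38). The sebaceous-like ratio was 0.34 (-0.19 to 0.88) with coarser clustering (Leiden resolution 0.5). Suprabasal-like cells differed least (64.4 and 58.7 CPM, -0.13, -0.22 to -0.05), but 4927 of the 5796 ablated cells there came from a cluster led by Slpi, Krt6b and Sprr2 genes that held 7 control cells. T cell markers in suprabasal-like cells summed to 116 CPM in the control against 29.6 CPM in the ablated library, and their part in the ratio was not tested. The granular-like interval reached 0 (-0.43, -0.84 to 0.00), and 290 of the 893 ablated cells there came from a cluster with 8 control cells. Langerhans cell markers summed to 89.8 CPM in the control against 361 CPM in the ablated granular-like cells, and general immune markers to 8.32 and 45.3 CPM. Their part in the granular-like values was not tested. Keratinocytes without a compartment name were at 160.5 and 114 CPM (-0.50).

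Psmb9 was also lower in each compartment of the ablated library after 1 day. It was at 145 and 92.1 CPM in cycling-like cells (-0.66, -0.82 to -0.50), at 53.3 and 32.9 CPM in basal-like cells (-0.70, -1.07 to -0.34; -0.57 with coarser clustering and -0.56 without barcodes near free RNA) and at 44.3 and 31.9 CPM in suprabasal-like cells (-0.47). Granular-like cells had 48.2 and 21.8 CPM (-1.15, -1.59 to -0.70). Hair follicle-like cells had 35.1 and 24.6 CPM (-0.51) and sebaceous-like cells 58.9 and 41.2 CPM (-0.52). Psmb9 hashtag subsets did not overlap in cycling-like cells (control 143 to 156, ablated 68.7 to 111 CPM). They overlapped in basal-like (41.4 to 79.4 against 29.1 to 63.6 CPM) and suprabasal-like cells (35.9 to 56.8 against 31.4 to 38.1 CPM). They also overlapped in hair follicle-like (40.9 to 57.5 against 21.2 to 41.6 CPM) and sebaceous-like cells (46.7 to 69.0 against 34.9 to 50.9 CPM). Psmb10 had few UMIs in most compartments. Among those named, its interval excluded 0 after 1 day in granular-like cells (14.3 and 5.84 CPM, -1.29, -2.15 to -0.43), and it also did so in keratinocytes without a compartment name (-0.26, -0.51 to -0.01).

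The summed constitutive subunits differed less than Psmb8 and Psmb9 in the same comparisons, with a ratio of -0.04 in basal-like, -0.08 in suprabasal-like, -0.14 in granular-like, -0.02 in hair follicle-like, 0.09 in sebaceous-like and -0.03 in cycling-like cells. Past 1.5-fold were 0 of 42 members in hair follicle-like cells (background 4.84% higher and 2.97% lower), 0 of 41 in sebaceous-like cells (12.1% and 4.78%) and 1 of 42 in cycling-like cells (9.09% and 5.58%). That 1 was Psmb9, lower in the ablated library, and with doublets kept it was within the limit (-0.55). In basal-like cells 1 of 41 members was past it, also Psmb9 and also lower (background 9.53% higher and 7.93% lower). In suprabasal-like cells 2 of 43 were, Psmc3ip higher (1.08) and Psme2b lower (-0.76), beside 14.5% and 13.2%. In granular-like cells 3 of 40 were lower and 0 higher, beside 11.1% lower and 12.3% higher. They were Psmb9, Psmb10 and the assembly chaperone Psmd9 (47.0 and 29.0 CPM, -0.70, -1.11 to -0.28).

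**Figure D3:**
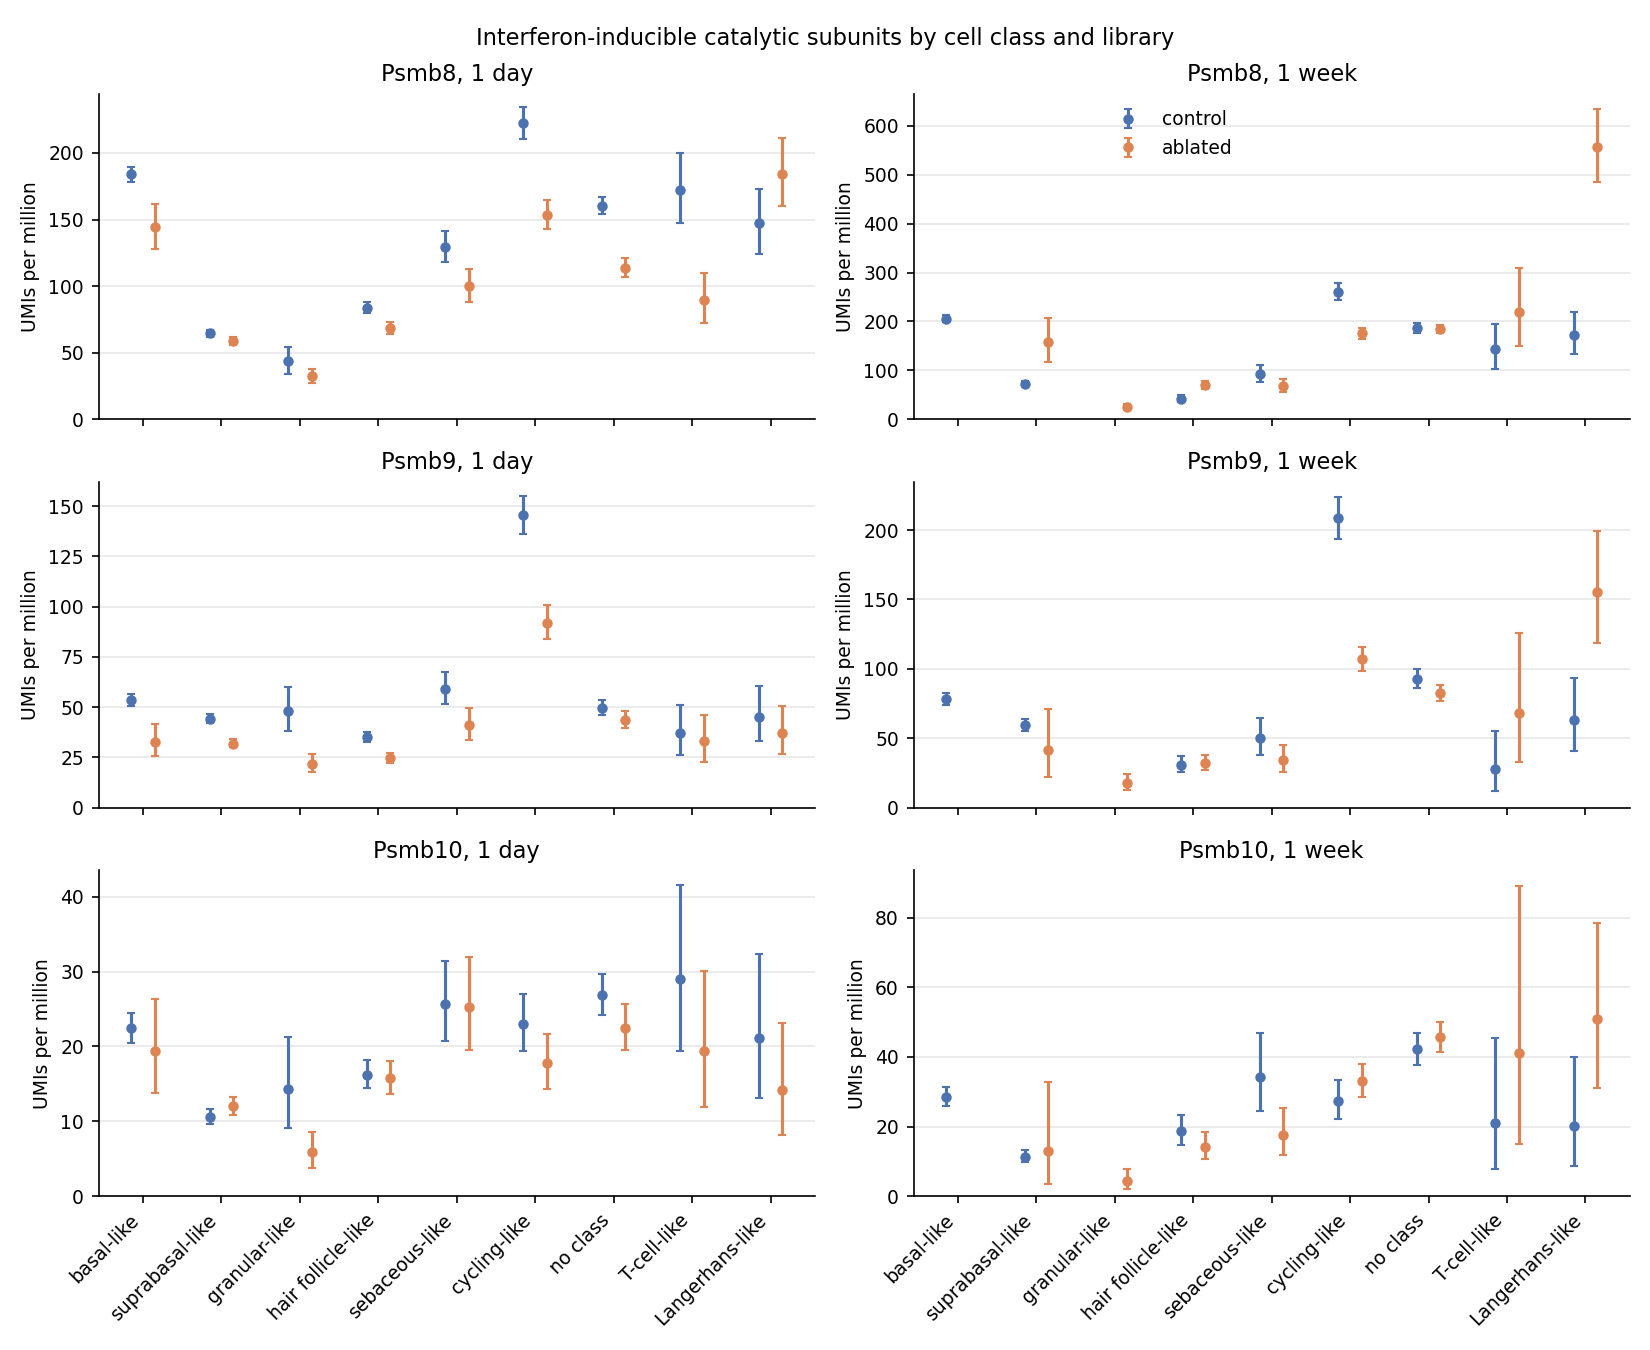
Level (CPM) of Psmb8, Psmb9 and Psmb10 by cell class after 1 day (left) and 1 week (right), control in blue and ablated in orange, with 95% counting intervals; a library with under 50 cells of a class has no point. After 1 day the ablated Psmb8 points lie below the control in every keratinocyte class, and after 1 week Langerhans-like cells of the ablated library hold 557 CPM of Psmb8 against 172 CPM in the control.

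After 1 week the keratinocyte pattern was another one. Constitutive subunits were higher in the ablated library, and Psmb8 and Psmb9 were slightly lower. The constitutive sum was at 4254 CPM in the control against 5202 CPM in the ablated library (log2 ratio 0.29, 0.28 to 0.30). Of the 36 genes 35 lay above 0, the exception being Psme3. The median of all 12680 genes was itself 0.18, against 0.30 for the members. Trimmed-mean scaling (TMM), which moved the median of all genes to 0.01, gave a ratio of 0.12 for the constitutive sum and -0.24 for the inducible sum.

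Psmb8 was at 148 CPM in the control against 140 CPM in the ablated keratinocytes (-0.08, -0.14 to -0.02). Psmb9 was at 79.9 and 69.8 CPM (-0.20, -0.28 to -0.11), and Psmb10 at 24.9 and 31.0 CPM (0.32, 0.18 to 0.45; -0.04 as a mean over cells). Their sum was at 252 and 241 CPM, a ratio of -0.07 (-0.11 to -0.02). Within 5 clusters of the keratinocyte class Psmb8 was lower in 3 and higher in 2, with the interval below 0 in 2 and above 0 in 2. Psmb9 was lower in 3 and higher in 2, with the interval below 0 in 2 and above 0 in 0. The constitutive sum was higher in 5 of 5. Langerhans cell markers in these keratinocytes summed to 80.6 CPM in the control against 161 CPM in the ablated library, general immune markers to 5.87 and 8.76 CPM and keratinocyte markers to 58279 and 43502 CPM. Their part in the 1-week values was not tested. The small difference of the inducible sum depended on the cells compared: with class shares held at the control's it was 0.06, and Psmb8 was 0.33. No interval was computed from the weighting itself. The unweighted interval was only shifted to these weighted values and is not given. The weighting left out basal-like and granular-like cells, which had under 50 cells in a library. It counted suprabasal-like cells, which came from different clusters in the 2 libraries. Psmb5 was at 174 and 238 CPM (0.45, 0.41 to 0.50), Psmb6 at 204 and 236 CPM (0.21) and Psmb7 at 107 and 129 CPM (0.27). Psme1 was at 150 and 138 CPM (-0.11), Psme2 at 200 and 223 CPM (0.16), Psme3 at 67.2 and 65.4 CPM (-0.04) and Psme4 at 75.9 and 80.9 CPM (0.09).

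Of the members after 1 week, 3 of 43 were past 1.5-fold higher and 0 lower, where 23.9% of all genes were higher and 8.73% lower. The 3 were Psmd9, an assembly chaperone (25.2 to 40.3 CPM, 0.68), Psmc3ip (6.16 to 9.46 CPM, 0.62) and Psme2b (2.34 to 3.68 CPM, 0.65). With trimmed-mean scaling 0 were past it. Reads of Psme2b may not be separable from those of Psme2, of which it is a copy. Alpha ring ratios ran from 0.10 (Psma2) to 0.53 (Psma7), beta ring ratios from 0.05 (Psmb2) to 0.45 (Psmb5), ATPases from 0.12 (Psmc6) to 0.46 (Psmc4) and non-ATPase subunits from 0.05 (Psmd8) to 0.48 (Psmd3). Mitochondrial UMIs made up 1.66% of control and 2.05% of ablated keratinocyte UMIs after 1 week, and 4.24% and 4.45% after 1 day.

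Ratios between an inducible subunit and the constitutive one it replaces come from the same cells and need no scaling. In keratinocytes Psmb8/Psmb5 was 0.568 in control and 0.406 in ablated cells after 1 day (log2 change -0.49, -0.54 to -0.43). After 1 week it was 0.851 and 0.588 (-0.53, -0.61 to -0.46). Psmb9/Psmb6 was 0.217 and 0.175 after 1 day (-0.31) and 0.392 and 0.296 after 1 week (-0.41). Psmb10/Psmb7 was 0.148 and 0.112 after 1 day (-0.40), while after 1 week it was 0.231 and 0.240 (0.05, -0.10 to 0.20). Over all keratinocytes the pairs of Psmb8 and Psmb9 thus held relatively less of the inducible subunit in the ablated library at both times. The mix of classes enters these ratios. With class shares held at the control's the Psmb8/Psmb5 change was -0.22 after 1 day and 0.10 after 1 week, that of Psmb9/Psmb6 was -0.31 and -0.58, and that of Psmb10/Psmb7 was -0.21 and -0.22. After 1 week this weighting left out basal-like and granular-like cells, which had under 50 cells in a library. At both times it counted the suprabasal-like cells, which were not alike in the 2 libraries. Within classes Psmb8/Psmb5 was not lower in suprabasal-like cells (0.10, -0.00 to 0.20 after 1 day, 1.17 after 1 week) or, after 1 week, in hair follicle-like cells (0.61). The 1-week suprabasal-like cells came from different clusters in the 2 libraries, so the value of 1.17 does not compare like cells. After 1 day Psmb8 had a ratio of -0.59 and Psmb5 of -0.11, and after 1 week Psmb8 had -0.08 and Psmb5 0.45.

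**Figure D4:**
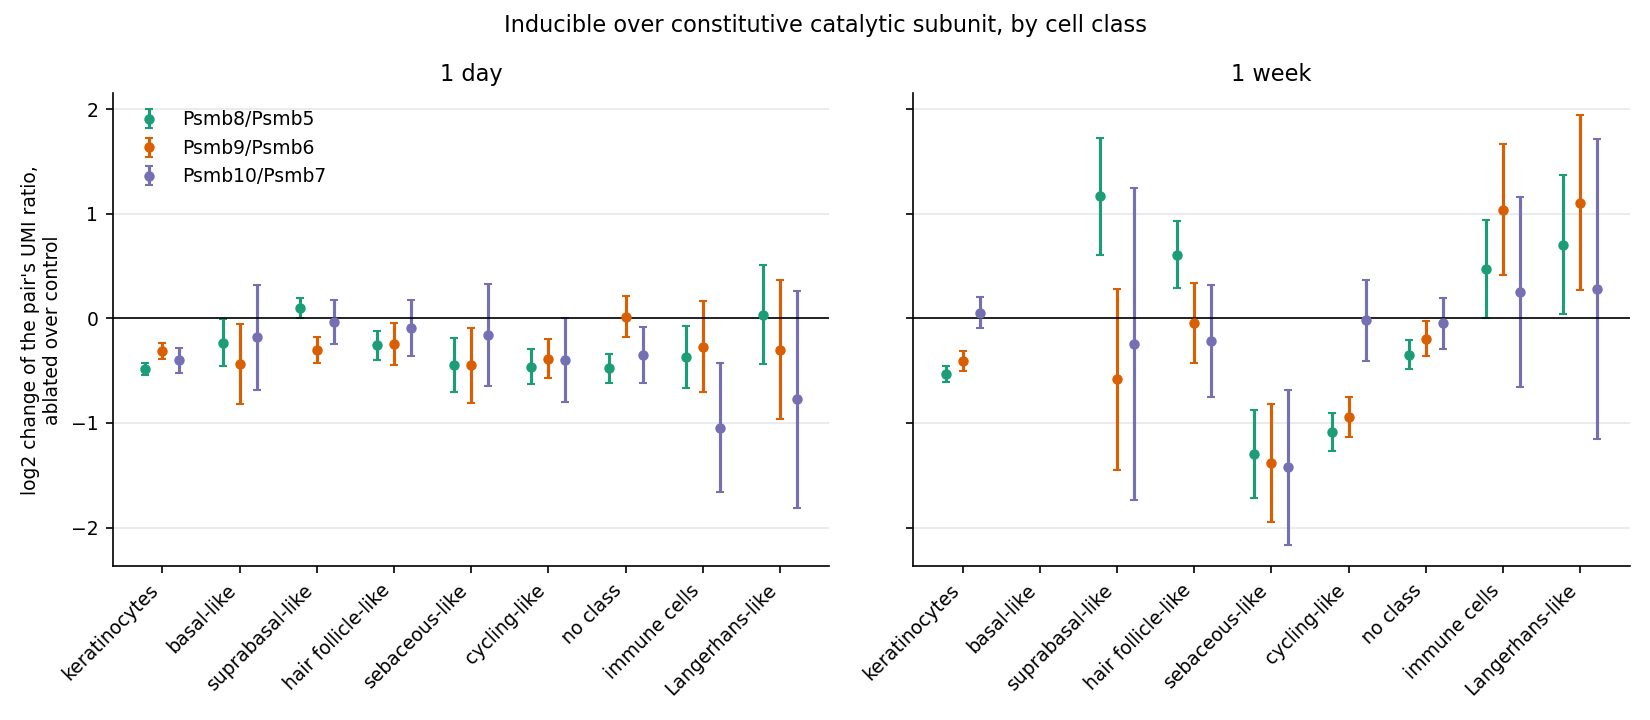
Log2 change (ablated over control) of the UMI ratio of each inducible catalytic subunit to its constitutive partner by cell class, with 95% counting intervals, after 1 day (left) and 1 week (right). Values below 0 mean relatively less of the inducible subunit in the ablated library: after 1 week cycling-like (-1.09 for Psmb8/Psmb5) and sebaceous-like cells (-1.30) lie below 0, and hair follicle-like (0.61) and Langerhans-like cells (0.70) above it. Most ablated sebaceous-like cells after 1 week came from a cluster that the control lacked, so that value does not compare like cells.

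Cycling-like keratinocytes (833 control and 962 ablated cells after 1 day, 277 and 289 after 1 week) formed 1 cluster at each time. They had lower Psmb8 and Psmb9 in the ablated library at both times. After 1 week Psmb8 was at 261 CPM in the control against 175 CPM in the ablated library (-0.57, -0.70 to -0.44), and Psmb9 at 208 and 107 CPM (-0.96, -1.12 to -0.81). Psmb10 was at 27.4 and 33.0 CPM (0.26, -0.09 to 0.63). The activator subunit Psme2 was lower at both times, with 209 and 154 CPM after 1 day (-0.44) and 299 and 236 CPM after 1 week (-0.34). Constitutive subunits summed had ratios of -0.03 after 1 day and 0.29 after 1 week. After 1 week Psmb8/Psmb5 was 1.24 in the control and 0.585 in ablated cells (log2 change -1.09), and Psmb9/Psmb6 was 0.754 and 0.392.

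After 1 week 1 of 42 members in these cycling-like cells was past 1.5-fold higher (Psma7, 0.65) and 1 lower (Psmb9), beside 14.4% and 15.4% of all genes. MHC class I presentation genes act on the peptides that the proteasome makes. Of 14 such genes 6 were past 1.5-fold lower and 0 higher, and their median was -0.51 where that of all genes was -0.03. They were B2m, H2-K1, H2-Q4, H2-T23, Nlrc5 and Tap1. The class I heavy chain gene H2-K1 was at 2772 and 1489 CPM (-0.90), its light chain B2m had a ratio of -0.78 (-0.82 to -0.74), and Tap1 at 158 and 91.0 CPM (-0.79). Nlrc5, a transactivator of class I genes, was at 40.2 and 17.9 CPM (-1.16, -1.54 to -0.79). After 1 day in the same class 0 of the 14 were past 1.5-fold and the median was -0.06. The interferon response list had both directions in these cells after 1 week. Of its 16 genes with enough UMIs 4 were past 1.5-fold higher and 3 lower, with a median of -0.12. Langerhans cell markers summed to 89.9 CPM in the control against 120 CPM in the ablated cycling-like cells after 1 week, T cell markers to 22.9 and 44.1 CPM, general immune markers to 3.68 and 7.34 CPM and keratinocyte markers to 43077 and 38605 CPM. After 1 day the general immune markers were at 9.73 and 19.8 CPM and the keratinocyte markers at 39778 and 25289 CPM. Their part in these values was not tested.

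In sebaceous-like cells after 1 week the constitutive subunits were higher in the ablated library, and the summed inducible ones were lower (177 and 121 CPM, -0.55, -0.84 to -0.26). The constitutive sum was at 6394.5 CPM in the control against 9492 CPM in the ablated library, a ratio of 0.57 (0.53 to 0.61), with 36 of 36 genes above 0. Past 1.5-fold higher were 14 of 41 members, against 18% of all genes, and 1 was lower, against 10.9%. The median of the members was 0.53 and that of all genes 0.10. The highest ratios were those of Psmd4, a ubiquitin receptor of the cap (0.92), the ATPases Psmc1 and Psmc2 (0.89 each) and Psmb5 (0.87). The 1 lower member was Psmb10 (34.3 and 17.6 CPM, -0.96, -1.72 to -0.23). Psmb8 was at 92.3 and 68.5 CPM (-0.43, -0.83 to -0.03) and Psmb9 at 50.1 and 34.6 CPM (-0.54, -1.10 to 0.02).

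The 1-week sebaceous-like class was small and uneven. It held 121 control and 262 ablated cells, and 183 of the ablated cells came from a cluster with 0 control cells. The median UMI total per cell was 7976 in the control against 2300 in the ablated library. With coarser clustering the class was not compared, since a library then held under 50 of its cells. In the cluster both libraries shared, with 121 and 79 cells, the constitutive sum was again higher (0.52, 0.47 to 0.56). The inducible sum there was at 177 and 142 CPM (-0.32, -0.62 to -0.02), but each single interval reached past 0, with ratios of -0.17 (-0.58 to 0.24) for Psmb8, -0.41 (-1.01 to 0.18) for Psmb9 and -0.65 (-1.43 to 0.10) for Psmb10. Langerhans cell markers in the whole class summed to 134 CPM in the control against 33.9 CPM in the ablated library, with 6 of 8 detected in each. Cd207 was at 0 in the control and Cd86 in both. Their part in the inducible values was not tested. With trimmed-mean scaling 9 members were past 1.5-fold higher and 2 lower, with mitochondrial and ribosomal protein genes left out of the total 6 and 3, and as a mean over cells 29 and 2. The share of all genes past it was not counted under these settings. Psme1 was at 245 and 354 CPM (0.53, 0.32 to 0.74) and Psme2 at 614 and 804 CPM (0.39, 0.25 to 0.52). After 1 day the constitutive sum of sebaceous-like cells was 0.09 higher and 24 of 36 genes were above 0.

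Hair follicle-like cells had a higher Psmb8 level in the ablated library after 1 week. It was at 41.7 CPM (35.6 to 48.6; 164 UMIs) in the control and 70.5 CPM (62.6 to 79.0; 293 UMIs) in the ablated library, a ratio of 0.76 (0.48 to 1.04). It was the 1 of 42 members past 1.5-fold higher, with 0 lower, beside 8.58% and 6.36% of all genes. This call depended on how cells were classed: the Psmb8 ratio was 0.44 (0.22 to 0.67) with doublets kept and 0.13 (0.03 to 0.22) with coarser clustering. Psmb9 was at 31.0 and 32.2 CPM (0.05, -0.31 to 0.42) and Psmb10 at 18.6 and 14.2 CPM (-0.39, -0.91 to 0.13). For the constitutive sum the ratio was 0.11 (0.08 to 0.14). The interferon-induced transcription factor Irf1 was at 41.2 and 78.4 CPM in these cells (0.93, 0.65 to 1.21) and at 28.4 and 42.8 CPM after 1 day (0.60). Of the interferon response list 5 of 17 genes were past 1.5-fold higher and 1 lower (Gbp2) in hair follicle-like cells after 1 day, with a median of 0.19, and 5 of 14 higher and 0 lower after 1 week, with a median of 0.49. Over all genes of the class the shares were 4.84% higher and 2.97% lower, then 8.58% and 6.36%. Basal-like cells could not be compared after 1 week, since the ablated library held 21 of them against 2111. Suprabasal-like cells came from different clusters in the 2 libraries (1102 control and 10 ablated cells in the one, 0 and 64 in the other), so their Psmb8 values of 72.5 and 157 CPM do not compare like cells.

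Immune cells are known to carry the immunoproteasome without stimulation, and Langerhans cells are the antigen-presenting cells of the epidermis. After 1 week Langerhans-like cells (102 control and 57 ablated) held 172 CPM of Psmb8 (134 to 218; 68 UMIs) in the control and 557 CPM (485 to 635; 219 UMIs) in the ablated library. The log2 ratio was 1.69 (1.29 to 2.11). Psmb9 was at 63.4 and 155 CPM (1.29, 0.60 to 2.02) and Psmb10 at 20.3 and 50.8 CPM (1.33, 0.08 to 2.72). Psme2 was at 71.0 and 435 CPM (2.61, 2.03 to 3.25). The constitutive sum was at 2481 and 3639 CPM (0.55, 0.43 to 0.67). Past 1.5-fold higher were 16 of 27 members and 0 lower, beside 17.8% and 16.3% of all genes. The members' median was 0.93 and that of all genes 0.00. Of 11 class I presentation genes with enough UMIs 1 was past 1.5-fold higher (Tap2) and 0 lower, with a median of -0.15.

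The 57 ablated Langerhans-like cells were not all of 1 kind. Ccr7, the receptor that guides dendritic cells to lymph nodes, was chosen after its values were seen. It had a UMI in 21 of the 57 ablated cells and in 3 of the 102 control cells. The actin bundler Fscn1 had 775 UMIs and the chemokine Ccl22 865 UMIs in the ablated class and 0 each in the control, while the Langerhans marker Cd207 was at 9290 CPM in the control against 4290 CPM in the ablated class. The 21 ablated cells with a Ccr7 UMI held 939 CPM of Psmb8, 225 CPM of Psmb9 and 862 CPM of Psme2. In the cells with no Ccr7 UMI, 99 control and 36 ablated, Psmb8 was at 171 and 307 CPM (0.84, 0.34 to 1.35). Psme2 there was at 69.9 and 155 CPM (1.15, 0.40 to 1.93), and the constitutive sum at 2480 and 3425 CPM (0.47, 0.33 to 0.60). The median UMI total per cell of the class was 3839.5 for control and 6579 for ablated cells. Keratinocyte markers summed to 2073 and 2633 CPM, Langerhans cell markers to 147702 and 115893 CPM and macrophage markers to 1095 and 1677 CPM, and their part in these ratios was not tested. With coarser clustering the class held 150 and 81 cells, and the ratios were 0.92 for Psmb8 and 0.99 for Psme2. Psmb9 and Psmb10 were then within 1.5-fold, at 0.39 (-0.03 to 0.80) and 0.51 (-0.28 to 1.29), and 9 of 39 members were past it higher and 0 lower. The share of all genes past it was not counted with coarser clustering.

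**Figure D5:**
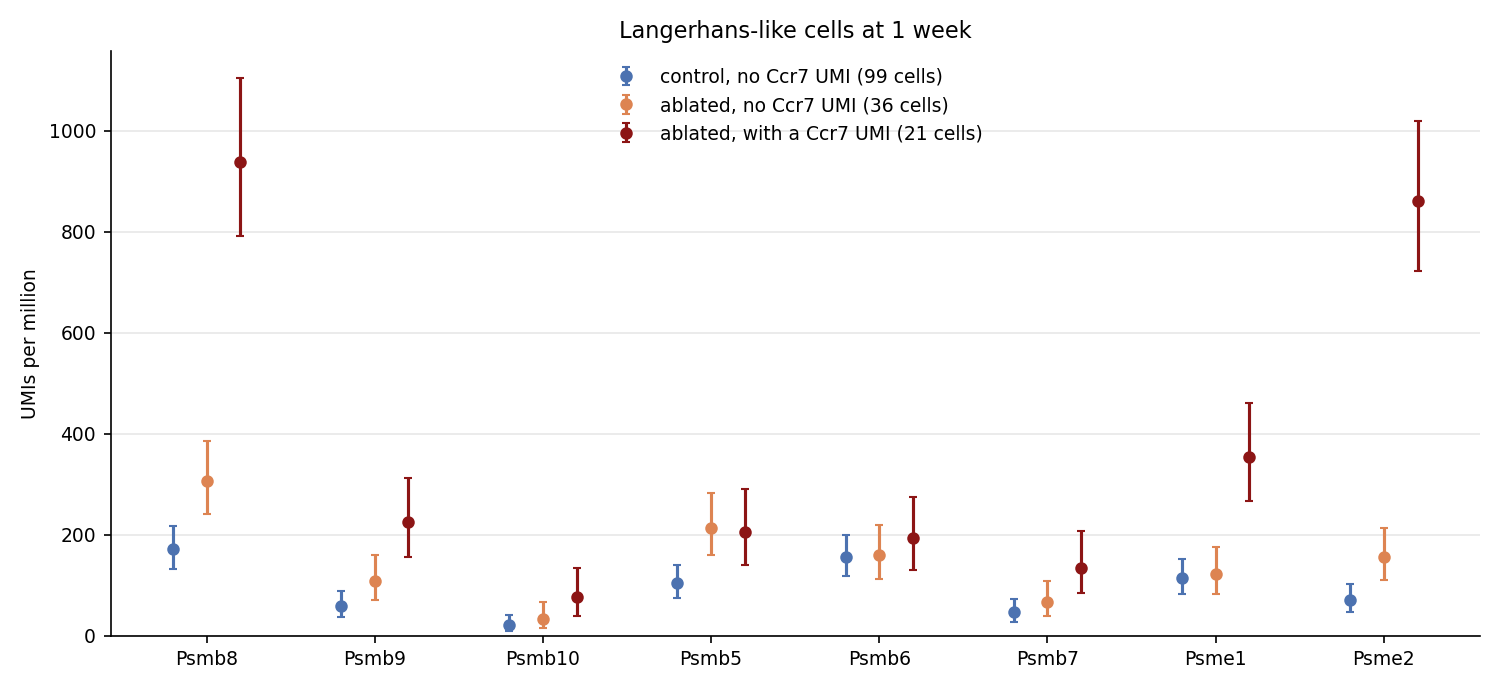
Level (CPM) of 8 proteasome genes in Langerhans-like cells after 1 week, with 95% counting intervals, for control cells and ablated cells with no Ccr7 UMI and for ablated cells with one. Psmb8 and Psme2 reach 939 and 862 CPM in the 21 ablated cells with a Ccr7 UMI, against 307 and 155 CPM in the 36 ablated cells without and 171 and 69.9 CPM in the 99 control cells.

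After 1 day the Langerhans-like cells (385 and 466) differed less. Psmb8 was at 147 and 184 CPM (0.33, 0.01 to 0.64), Psmb9 at 45.3 and 37.4 CPM (-0.28, -0.92 to 0.36) and Psme2 at 88.7 and 113 CPM (0.35, -0.05 to 0.76). With doublets kept the Psmb8 ratio was -0.10 and that of Psme2 -0.29. T-cell-like cells (509 and 271) had 172 and 89.5 CPM of Psmb8 (-0.94, -1.32 to -0.57). Their 11 T cell markers, all detected, summed to 11519 CPM in the control against 2790 CPM in the ablated library, and their 15 keratinocyte markers to 14799 and 32993 CPM. The part of keratinocyte RNA in the T-cell-like difference was not tested. After 1 week T-cell-like cells (139 and 71) had 143 and 219 CPM (0.61, -0.10 to 1.32). Langerhans cell markers there summed to 164 CPM in the control against 1770 CPM in the ablated library, and keratinocyte markers to 1151 and 2023 CPM. Their part in the 1-week values was not tested.

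Over all immune cells (1137 and 866 after 1 day, 326 and 170 after 1 week) the inducible sum was at 240 and 197 CPM after 1 day (-0.29, -0.46 to -0.11). The hashtag subsets did not bear out this direction. They held 156, 176 and 367 CPM in the control and 180, 196 and 242 CPM in the ablated library. Only the highest control subset lay above the ablated ones, and the others lay below all of them. Keratinocyte markers in these immune cells summed to 10734 CPM in the control against 20675 CPM in the ablated library after 1 day, T cell markers to 5601 and 1547 CPM and general immune markers to 4945 and 2949 CPM, with all of each list detected. Their part in the 1-day ratio was not tested. After 1 week the inducible sum was at 276 and 608 CPM (1.14, 0.91 to 1.38). T cell markers then summed to 10996 and 6932 CPM, macrophage markers to 487 and 1022 CPM, Langerhans cell markers to 65571 and 71083 CPM and keratinocyte markers to 4605 and 3134 CPM, and their part was not tested. Without Langerhans-like cells the 1-week sum ratio was 0.34 (-0.06 to 0.72), with only those that hold a Ccr7 UMI left out 0.57, and with coarser clustering 0.67. The 1-day ratio was -0.05 (-0.27 to 0.17) without T-cell-like cells. Past 1.5-fold after 1 day were 2 of 41 members, both higher (the ATPases Psmc5, 0.70, and Psmc1, 0.69), beside 12.8% of genes higher and 13% lower. After 1 week 15 of 37 members were past it higher and 1 lower, beside 12% and 11.2%. The lower one was Psme4 (58.4 and 37.2 CPM, -0.65, -1.41 to 0.07), whose interval reached past 0 and whose ratio was -0.15 with coarser clustering, -0.37 with low-UMI immune clusters, -0.51 without T-cell-like and -0.56 without Langerhans-like cells. Without Langerhans-like cells 4 of 24 members were past it, with coarser clustering 6 of 40 and with a minimum of 200 UMIs per gene 3 of 9, all of them higher. The share of all genes past it was not counted under these settings, so these counts have no background beside them.

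The share of cells with a UMI of Psmb8, Psmb9 or Psmb10 was compared among cells with 2000 or more UMIs, each thinned to 2000 UMIs. Cells with fewer UMIs were left out. In keratinocytes it was 29.1% (28.5 to 29.8) in the control and 21.4% (20.7 to 22.1) in the ablated library after 1 day, and 34.9% in the control after 1 week, where the ablated share was lower (difference -4.87 percentage points, interval 28.2 to 31.9 for the ablated share). Unthinned and over all cells of the class, with the cells under 2000 UMIs counted, the shares were 49.5% and 35.0%, and 64.0% and 54.8%. In cycling-like cells the thinned share was 53.0% and 38.7% after 1 day and 56.0% and 45.5% after 1 week. Hair follicle-like cells had 21.4% and 18.2%, then 14.9% and 14.97%. In Langerhans-like cells after 1 week it was 40.4% (30.2 to 51.4) and 64.3% (50.4 to 76.6). Intervals are exact Clopper-Pearson intervals and cover counting error only. No class was taken as lacking these genes, so no background share is given, and the part of free RNA in these UMIs was not tested. Fibroblast-like cells, shown for comparison, had 22.8% (14.1 to 33.6; 79 cells) and 27.8% (21.8 to 34.5; 205 cells) after 1 day and 35.0% and 42.9% after 1 week. They also carried RNA of other types: keratinocyte markers summed to 12865 and 32132 CPM after 1 day, and Langerhans cell markers to 273 and 2703 CPM after 1 week. Their part in these shares was not tested. The median UMI total of the keratinocytes used was 4641 and 4031 after 1 day and 6990 and 6986 after 1 week, and that of the fibroblasts 4297 and 3705, then 3592 and 3899.5.

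Genes around the proteasome were described by lists chosen by role. Of all genes in keratinocytes, 11.1% were past 1.5-fold higher and 6.77% lower after 1 day, and 23.9% and 8.73% after 1 week, and the counts of the lists stand beside those shares. Of 21 assembly and regulation genes in keratinocytes after 1 day, 2 were past 1.5-fold higher (Zfand5, 235 to 409 CPM, 0.80, and Zfand2a, both encoding proteins that associate with the proteasome) and 1 lower (the core assembly chaperone Psmg4, 27.9 to 17.6 CPM, -0.67). These counts were near or below the shares over all genes. After 1 week 0 were past it. Nfe2l1, the transcription factor that raises proteasome genes when proteasome activity is low, was at 159 and 165 CPM after 1 day (0.06) and 142 and 135 CPM after 1 week (-0.07). Pomp, the maturation chaperone of the core, was at 221 and 270 CPM (0.29), then 207 and 245 CPM (0.24). Psmf1, an inhibitor of the core, had ratios of -0.22 and 0.40, and the ubiquitin receptor Adrm1 of -0.13 and 0.07. Sem1, the small cap subunit, was at 415 and 465 CPM after 1 day (0.16) and 373 and 252 CPM after 1 week (-0.57).

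Of 13 ubiquitin and shuttle genes, 1 was past 1.5-fold at each time, Sqstm1 after 1 day (151 to 358 CPM, 1.25) and Ubqln1 after 1 week (0.66). Of 9 heat shock genes 1 was higher after 1 day (Hspb1, 0.63) and 3 after 1 week (Hspa1a, Hspa8 and Hsph1). None of the 14 class I presentation genes was past 1.5-fold in keratinocytes after 1 day, with a median of -0.09. After 1 week 1 of 14 was lower, Nlrc5 (51.7 to 27.7 CPM, -0.90), near the share of lower genes over all genes (8.73%). Nlrc5 was at 36.2 and 29.5 CPM after 1 day (-0.30). Tap1, the neighbour of Psmb9, had a ratio of -0.21 at both times, with 47.1 and 40.7 CPM after 1 day and 83.5 and 72.2 CPM after 1 week. Tap2 had ratios of -0.14 and 0.35, and B2m of -0.09 and -0.24.

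The interferon response list had 20 of its 23 genes with enough UMIs, and their ratios had both signs. After 1 day 3 were past 1.5-fold higher (Ifngr2, Irf7 and Socs1) and 2 lower (Gbp2 and Ifi27), with a median of 0.07, beside shares over all genes of 11.1% and 6.77%. After 1 week 7 were higher (Gbp2, Gbp3, Ifit1, Ifngr2, Irf7, Isg15 and Stat2) and 1 lower (Jak2), where 23.9% of all genes were higher and 8.73% lower. The list's median was 0.42 beside 0.18 for all genes. Irf7, a factor of the type I interferon loop, was higher at both times, from 1.87 to 6.28 CPM after 1 day (1.75) and from 5.64 to 17.9 CPM after 1 week (1.66). The interferon gamma receptor gene Ifngr2 was also higher at both (0.71 and 0.65). The guanylate-binding protein Gbp2, a gamma interferon target like Psmb8 and Psmb9, was lower after 1 day (7.22 to 4.07 CPM, -0.82) and higher after 1 week (0.81). Irf1 had ratios of 0.33 and 0.40 in keratinocytes where Psmb8 had -0.59 and -0.08.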

How the data were processed

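The deposited matrices hold UMI counts per gene and barcode that the authors made with Cell Ranger 5.0.1 on mm10, per the submitters' processing notes, which also name Seurat. The kits were 3′ version 3.1 (1 day) and 5′ version 1.1 (1 week), per the labels' protocols. Which ages, sexes or digestion (trypsin at 4 or 37 °C) went into which library is not given in the sources used here. Columns of no sample numbered 0.

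Barcodes passed with 500 or more UMIs, 300 or more genes and a mitochondrial share of up to 15%. Doublets were called by Scrublet scores at an assumed rate of 0.8% per 1000 barcodes, which removed 14.7 to 26.8% of barcodes. Both libraries of each time point entered 1 clustering with scanpy 1.11.5 (2000 variable genes, 30 principal components, 15 neighbours, Leiden resolution 1), without the proteasome genes, the listed genes or mitochondrial and ribosomal protein genes. Clusters were named from marker lists (at least 3 markers with a mean log2 fold of 2 or more, 7 markers for keratinocytes). At 1 week only, clusters with 50% or more of their barcodes near the free RNA profile were left out of the named classes. The naming limits were chosen once the data had been seen. Keratinocyte clusters whose 10 leading genes held more markers of another cell type than of keratinocytes and their compartments (Merkel cells such as Krt8, neutrophils such as S100a8, Langerhans cells, erythrocytes, smooth muscle or pericytes) were kept out of the keratinocytes, 3 clusters at 1 day and 7 at 1 week.

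UMIs were summed per library and class, with exact Poisson intervals for levels and exact binomial intervals for ratios (95%, scipy 1.17.1). Changes of an inducible over constitutive pair have 95% intervals from a normal approximation on the log scale. PCR duplicates are removed by UMIs, and the intervals cover counting error only. With 1 library per group no test was run. The calculation was tested on simulated data. The members and the lists were chosen with earlier results of these data known. Named throughout were the catalytic pairs, Psme1 to Psme4, the highest and lowest member of each role group, members past 1.5-fold and fixed regulators. Other genes in single compartments, and Ccr7, Fscn1, Ccl22 and Cd207, were chosen after their values were seen. Alternatives were TMM scaling, other totals and cell filters, clusterings and class definitions. 1 gene of the fixed regulators is not reported here.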

Additional observations from a re-analysis of the deposited data

Results flagged for a closer look

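These log2 ratios (ablated over control) had opposite signs at 1 day and 1 week, with counting intervals that excluded 0 at both times. The difference between the time points was not tested, and the kits differed between them. In keratinocytes Psmb10 was -0.24 at 1 day and 0.32 at 1 week, Psmb5 -0.11 and 0.45, Psmb6 -0.19 and 0.21, Psme2 -0.27 and 0.16, and the constitutive sum -0.02 and 0.29. The 1-day constitutive value was 0.029 as a mean over cells, with 18 of 36 genes on each side of 0, and the 1-week Psmb10 value -0.037 as a mean over cells. In hair follicle-like cells Psmb8 was -0.29 and 0.76, the sum of Psmb8, Psmb9 and Psmb10 -0.31 and 0.36, and the constitutive sum -0.02 and 0.11. There the 1-week Psmb8 value was 0.13 with coarser clustering, and the 1-day constitutive value 0.019 as a mean over cells. In cycling-like cells Psme3 was -0.32 and 0.26 and the constitutive sum -0.03 and 0.29. In immune cells Psmb8 was -0.27 and 1.23 and the sum of the 3 inducible genes -0.29 and 1.14. The 1-day Psmb8 value was 0.062 without T-cell-like cells, and the 1-week value 0.33 without Langerhans-like cells. In the 1-day hashtag subsets of immune cells Psmb8 was at 102, 125 and 258 CPM in the control and 124, 144 and 168 CPM in the ablated library. Only 1 control subset thus lay above all ablated ones. In T-cell-like cells the sum of the 3 inducible genes was -0.74 and 0.77, from 238 control and 146 ablated UMIs after 1 day and 55 against 48 UMIs after 1 week. It was -0.49 as a mean over cells at 1 day and 0.57 with doublets kept at 1 week. Keratinocyte markers in T-cell-like cells summed to 14799 and 32993 CPM at 1 day, and Langerhans cell markers to 164 and 1770 CPM at 1 week. Their part was not tested.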

How the results depend on the processing

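No paired analysis was possible because each group had 1 library and the results come from no test. Over single genes and compartments, 2006 of 2255 alternatives stayed and the others moved, 48 of them with a change of sign. A ratio was taken to stay when it lay within the counting interval of the main value. For a median the limit was a fixed distance from the main one, for a count 1.5-fold, and for a share difference its interval. Over sums, counts, medians and shares 146 of 206 stayed and 60 moved, 3 with a change of sign (the 1-day constitutive and 1-week inducible sums in keratinocytes and the unthinned immune share). Of values past 1.5-fold 0 changed sign. The cause of each move below was not tested. Shares of all genes past 1.5-fold were not counted under the alternatives. Class shares, every keratinocyte cluster, clusters with S100a8 among their leading genes, removal of barcodes near free RNA, leaving out T-cell-like, Langerhans-like or Ccr7 cells, and unthinned shares were alternatives added after seeing the data.
In keratinocytes at 1 day the constitutive sum was -0.11 and the inducible sum -0.63 with mitochondrial and ribosomal protein genes left out of the total, -0.0087 and -0.45 with the cluster led by Krt8 and Krt18 counted, -0.016 and -0.48 with every keratinocyte cluster counted, and -0.041 and -0.37 with class shares held at the control's. The constitutive sum was 0.029 as a mean over cells, and the inducible sum -0.47 over all cells. Members past 1.5-fold were 1 (0 higher, 1 lower) as a mean over cells and with doublets kept, and 1 (1 higher, 0 lower, Psmb8 no longer past it) with that cluster, every keratinocyte cluster and over all cells. The latter split also held with class shares held (Psmb8 -0.34), and without mitochondrial and ribosomal protein genes 0 were higher and 2 lower.
In keratinocytes at 1 week the constitutive and inducible sums were 0.12 and -0.24 with TMM scaling (median of members 0.12), 0.22 and -0.13 without mitochondrial and ribosomal protein genes (which moved the median of all genes to 0.12), 0.32 and -0.25 as a mean over cells, 0.30 and -0.20 at Leiden resolution 0.5, and 0.15 and 0.055 with class shares held at the control's. The class-share values left out basal-like and granular-like cells. The inducible sum was -0.20 with the cluster led by Krt6b and Prl2c3 (Krt8 among its leading genes) and -0.18 with every keratinocyte cluster, and the constitutive sum 0.30 over all cells. The count past 1.5-fold was 1 as a mean over cells and with every keratinocyte cluster and 0 with TMM scaling, at resolution 0.5, with that Krt6b-led cluster and over all cells.
In immune cells at 1 day the constitutive sum was 0.012 with doublets kept (median 0.025, count 0), 0.085 without barcodes near free RNA and 0.23 without Langerhans-like cells (inducible sum -0.64, count 6). The inducible sum was -0.052 without T-cell-like cells (count 1). The count was 5 as a mean over cells, 4 at a limit of 10% mitochondrial UMIs, 1 with 200 UMIs per gene and 5 with no minimum.
In immune cells at 1 week the inducible sum was 0.67 at resolution 0.5 (count 6), 0.84 with low-UMI immune clusters and 0.57 without Langerhans-like cells holding a Ccr7 UMI. Without Langerhans-like cells it was 0.34, the constitutive sum 0.17, the count 4 and the median 0.21. The median was 0.50 without T-cell-like cells, and the count 3 with 200 UMIs per gene. Unthinned and over all cells of the class, the share of cells with an inducible-subunit UMI differed by -14.6 and -9.18 percentage points in keratinocytes (1 day, 1 week) and by 6.89 in immune cells at 1 day, against -7.75, -4.87 and -3.37 thinned. The thinned shares leave out cells with under 2000 UMIs, so these values differ in the cells used as well as in depth. Depth limits Psmb10 in small classes, where it had under 50 UMIs in a library.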

Other observations

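A 1-day cluster led by Krt8 and Krt18, keratins of simple epithelia and Merkel cells, held 4359 ablated and 2 control cells, so it could not be compared between genotypes. In the ablated cells Psmb8 was at 109 CPM (104 to 114), Psme2 at 137 CPM and the constitutive sum at 5171 CPM. A 1-week cluster led by Krt6b, Prl2c3 and Prl2c2, with Krt8 among its leading genes and Krt18 not, held 602 ablated and 2 control cells. Psmb8 was at 108 CPM in its ablated cells, Psme2 at 185 CPM and the constitutive sum at 5285 CPM. The clusters of the 2 times were not matched to each other. A 1-day cluster led by Cstdc5 and Krt6b, with S100a8 and S100a9 among its leading genes, held 126 control and 565 ablated cells. Psmb8 there was at 113 and 71.3 CPM (-0.67) and Psmb9 at 64.3 and 27.7 CPM (-1.21). Langerhans cell markers summed to 80.2 CPM in its control cells against 239 CPM in its ablated cells, and T cell markers to 131 and 39.3 CPM. General immune markers summed to 12.9 and 20.2 CPM and keratinocyte markers to 75095 and 58990 CPM. Their part in these ratios was not tested.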
